A study of Daphnia magna with 56 samples.

Results

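The transcripts described here are the 60 whose level in whole Daphnia magna was ordered most steadily upward with the gamma dose rate after 4 days of exposure and was only weakly related to it after 8 days. They were selected on measured values from the 23570 transcript records of the count tables. For each record, log2 of CPM plus 0.5 (CPM, counts divided by the column total and multiplied by 1000000) was correlated with the rank of the dose rate, by Spearman's coefficient, over the 28 libraries of each day. Records were kept when their mean level over all 56 libraries lay between 5 and 1000 CPM, when the unexposed animals of the 2 ages differed by less than 1 on the log2 scale, and when the day 8 correlation was under 0.3 in size. These limits left 4243 records, and the 60 with the highest day 4 correlation were taken.

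The study sequenced messenger RNA of whole, wild-type, female juveniles. Neonates were placed in gamma fields of 0.4, 1, 4, 10, 40 or 100 mGy/h, or were kept at 0 mGy/h as controls, and were sampled after 4 days (animals 4 days old) or 8 days (animals 8 days old). Each of the 14 groups had 4 libraries. The labels do not say whether animals were pooled or whether replicate libraries came from separate beakers, so the p-values given below measure only the spread between these libraries, which may be technical. All exposed groups of a day are compared with the same 4 controls.

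Daphnia magna, a water flea, is a freshwater crustacean that reproduces clonally in culture and is a standard animal of toxicity testing. Ionising radiation breaks DNA directly and also forms reactive oxygen species from water, and in animal cells such damage is known to raise the messenger RNA of repair, antioxidant and cell cycle genes. Between the 2 sampling ages the juveniles moult repeatedly and mature. The tables name RefSeq model transcripts by accession only. Of the 60 members, 44 matched a gene symbol in the RefSeq annotation of assembly ASM2063170v1.1, all of them LOC numbers with no description, and 16 matched none. No member can therefore be given a function here, and the members are described by their levels, their dose-rate profiles and their neighbours in the annotation. Sequences were not used.

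The values that chose the members were as follows. The day 4 correlation was 0.833 for the leading member, XM_032939781.1 (LOC116932061), and 0.725 for the next, XM_032936871.1 (LOC116929608). It exceeded 0.7 for 5 members and 0.6 for 11, its median was 0.495, and for 32 members it lay under 0.5. Over the 4243 records within the limits, the median was -0.020, and 46.1% were positive. Day 8 correlations of the members ran from -0.298 to 0.245, with 27 positive and 33 negative. The control level was lower on day 8 than on day 4 in 48 of the 60 members (80%), with a median log2 difference of -0.41. Over the 4243 records, 81.5% were lower and the median difference was -0.35.

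**Figure D1:**
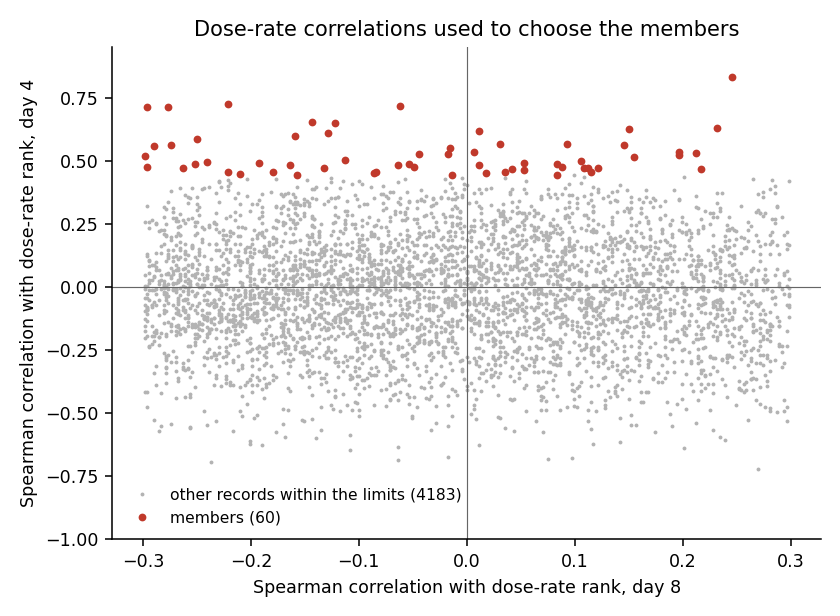
Spearman correlation of the level with the dose-rate rank on day 4 (vertical axis) against that on day 8 (horizontal axis) for the 4243 records within the limits, with the 60 members in red. XM_032939781.1 stands alone at 0.833, and the other members continue without a gap into the records below the lowest member at 0.442.

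The lower edge of the list was arbitrary. The members at positions 59 and 60, XM_032923424.1 (LOC116917831) and XM_032925330.1, had the same day 4 correlation of 0.442 as XM_032931432.1 (LOC116924853) at position 61, and the order of the record names decided between them. Position 58, XM_032923653.1 (LOC116918012), had 0.444. Just outside followed XM_032920892.1 (LOC116915766) and XM_032921388.1 (LOC116916175), both with 0.436. When the same rule was applied to CPM on TMM-scaled library sizes (TMM, trimmed mean of M values, corrects for composition), 38 of the 60 members were chosen again. With the 24 exposed libraries alone, 25 were.

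Depth was even, with 13285376 to 14243541 counts per library on day 4 and 14032254 to 14986499 on day 8, and no member had fewer than 95 counts in any day 4 library. On day 4 the first principal component of all transcripts held 50.9% of the variance and was not ordered by dose rate. The 4 libraries at 0.4 mGy/h scored 29.0 to 56.4 on it, and the 4 controls -39.2 to -25.7. It divided the 1 mGy/h group, with libraries 1 and 2 at -40.3 and -40.6, and libraries 3 and 4 at 39.7 and 36.5. Library 3 at 4 mGy/h, with -27.6, stood apart from the others of its group (31.3 to 39.4), and so did library 4 at 40 mGy/h, with 37.8 (others -35.6 to -21.1). Without libraries 1 and 2 at 1 mGy/h, the day 4 correlations of the members ran from 0.419 to 0.860. A gap divided the day 4 totals, with 20 libraries at or below 13625826 counts (the smaller class) and 8 at or above 13955640 (the larger class). The larger class held 1 control, the whole 10 mGy/h group, 2 of the 40 mGy/h libraries and 1 of the 100 mGy/h libraries. Within the smaller class, all 60 correlations were positive, with a median of 0.459 and a range of 0.182 to 0.781. Within the 8 libraries of the larger class, 58 of the 60 were positive, with a median of 0.626 and a range of -0.141 to 0.932. This calculation was added after seeing the data, and the class held 4 of the 7 dose-rate groups. The rule ranked the members over these same day 4 libraries. High correlations in any part of them are therefore favoured by the choice and test nothing.

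On day 4 the members as a group were higher mainly at the upper dose rates, and by little. In edgeR's quasi-likelihood fit, their median log2 fold changes against the control at 0.4, 1, 4, 10, 40 and 100 mGy/h were 0.00, 0.02, 0.02, 0.05, 0.09 and 0.12. The last corresponds to 1.08-fold. The median over all 9369 transcripts tested stayed within 0.01 of 0 at each dose rate. The number of members with a positive fold change was 32, 38, 42, 53, 60 and 60 in the same order. Of all transcripts tested, 47.3%, 52.1%, 50.0%, 47.7%, 51.4% and 50.9% had a positive fold change. The rule ranked the members over these same libraries, so their rise is favoured by the choice and tests nothing. At 100 mGy/h the members' fold changes ran from 0.04 to 1.64 on the log2 scale. Only 1 member was above 1, another 4 lay between 0.5 and 1, a further 7 between 0.25 and 0.5, and 48 under 0.25. As these are whole animals, a higher level in each cell and a larger share of the cells that express a transcript cannot be told apart.

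Most profiles were uneven. The 100 mGy/h group had the highest mean in 31 members, the 40 mGy/h group in 21, the 10 mGy/h group in 6, and the 4 and 1 mGy/h groups in 1 each. The lowest was at 0.4 mGy/h in 25 members and in the control in 22. The mean at 0.4 mGy/h was under that of the control in 31 of the 60. None of the members climbed at all 6 steps between neighbouring dose rates, and 15 climbed at 5 of them. The mean at 100 mGy/h was above that at 40 mGy/h in 35 members.

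**Figure D2:**
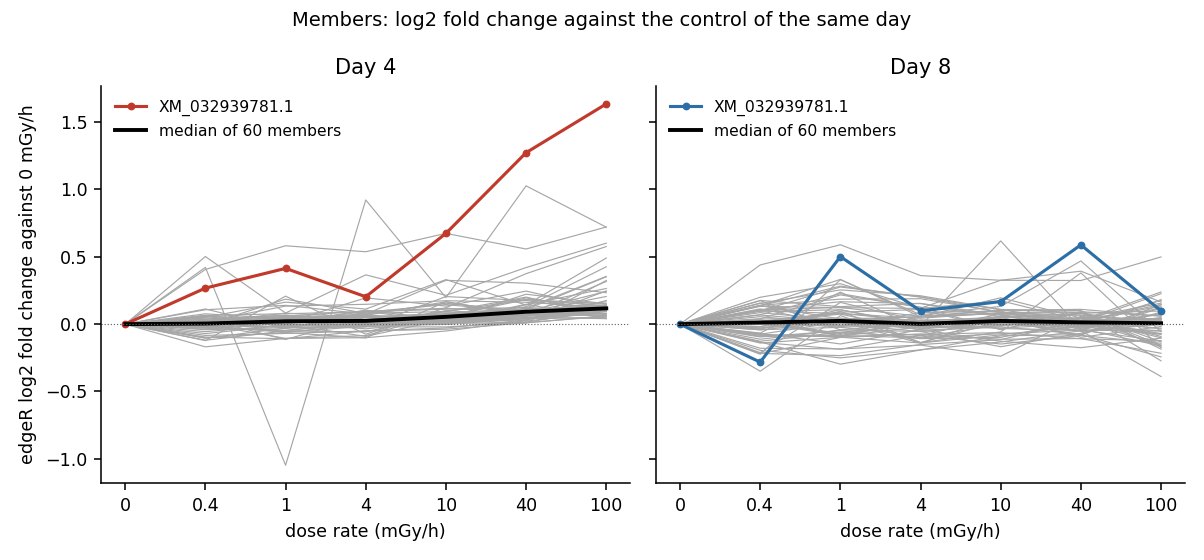
edgeR log2 fold change of each of the 60 members (grey lines) against the control of the same day, by dose rate, on day 4 (left) and day 8 (right), with the members' median in black and XM_032939781.1 in colour. The day 4 median reaches 0.12 at 100 mGy/h, XM_032939781.1 reaches 1.64, and on day 8 the median at 100 mGy/h is 0.01.

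The rule ranked the records by the same day 4 relation, so the following counts describe the members and test nothing. An edgeR slope on the dose-rate rank was called rising (Benjamini-Hochberg adjusted p under 0.05) for 9 members, where 0.416% of all tested transcripts were called rising. Against the control, the number of members called higher was 10 for 100 mGy/h (0.555% of all), 2 for 40 mGy/h (0.267%), 1 for 10 mGy/h (0.245%), 0 for 4 mGy/h (0.0427%), 1 for 1 mGy/h (0.448%) and 0 for 0.4 mGy/h (0.128%). At 4 and 0.4 mGy/h, 7 and 6 members had an unadjusted edgeR p under 0.05, where 11.3% and 13.3% of all tested transcripts did, so the members' counts were near the background. All 4 libraries at 100 mGy/h exceeded all 4 controls in 21 members (1.75% of all), and all 4 libraries at 40 mGy/h did so in 19 (3.11% of all). Altogether 12 members were called in the trend or at 100 mGy/h, 7 of them in both. The other 48 had log2 fold changes of 0.04 to 0.72 at 100 mGy/h, with a median of 0.11. DESeq2 called 20 members in the trend (0.704% of all) and 16 at 100 mGy/h (0.886% of all). Within the smaller class of library totals edgeR called 6 at 100 mGy/h (0.244% of all).

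The leading member, XM_032939781.1 (LOC116932061), had the largest change of the 60, 3.11-fold at the highest dose rate on day 4. It had 69.5, 59.8, 73.4 and 65.7 CPM in the 4 libraries at 100 mGy/h, against 24.9, 20.4, 18.8 and 23.2 CPM in the controls. The lowest library at 100 mGy/h lay far above the highest control. The libraries at 40 mGy/h, with 52.9, 48.4, 50.9 and 60.4 CPM, also stood clear of the controls, and 3 of the 4 lay below every library at 100 mGy/h. At 10 mGy/h the values of 29.0, 45.4, 28.2 and 37.8 CPM were still above every control, while at 0.4, 1 and 4 mGy/h the groups overlapped the controls, with means of 26.2 ± 6.94, 29.2 ± 6.26 and 25.4 ± 5.79 CPM (SD, n = 4 each). By edgeR this was a log2 fold change of 1.64 (adjusted p = 1.23e-05, SE 0.19), and at 40 mGy/h one of 1.27 (adjusted p = 0.00129, SE 0.19). The call at 100 mGy/h held in each of the 28 fits that left out 1 library.

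On day 8 the same transcript was higher in the controls and only weakly related to the dose rate. Its day 8 correlation of 0.245 was the highest of the members, and the rule admitted only values under 0.3 in size. The transcript had 46.8, 44.3, 43.9 and 34.5 CPM at 100 mGy/h, against 38.8, 33.8, 45.6 and 48.7 CPM in the controls of that day, and the groups overlapped. Its highest day 8 mean, 58.8 ± 8.93 CPM at 40 mGy/h (SD, n = 4), was not called against the control mean of 41.7 ± 6.71 CPM (SD, n = 4; edgeR log2 fold change 0.59, adjusted p = 0.502). The log2 level of the controls was 0.91 higher on day 8 than on day 4, the largest such difference among the members. At 100 mGy/h, by contrast, the mean of 42.4 ± 5.41 CPM on day 8 lay under the 67.1 ± 5.78 CPM of day 4 (SD, n = 4 each).

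**Figure D3:**
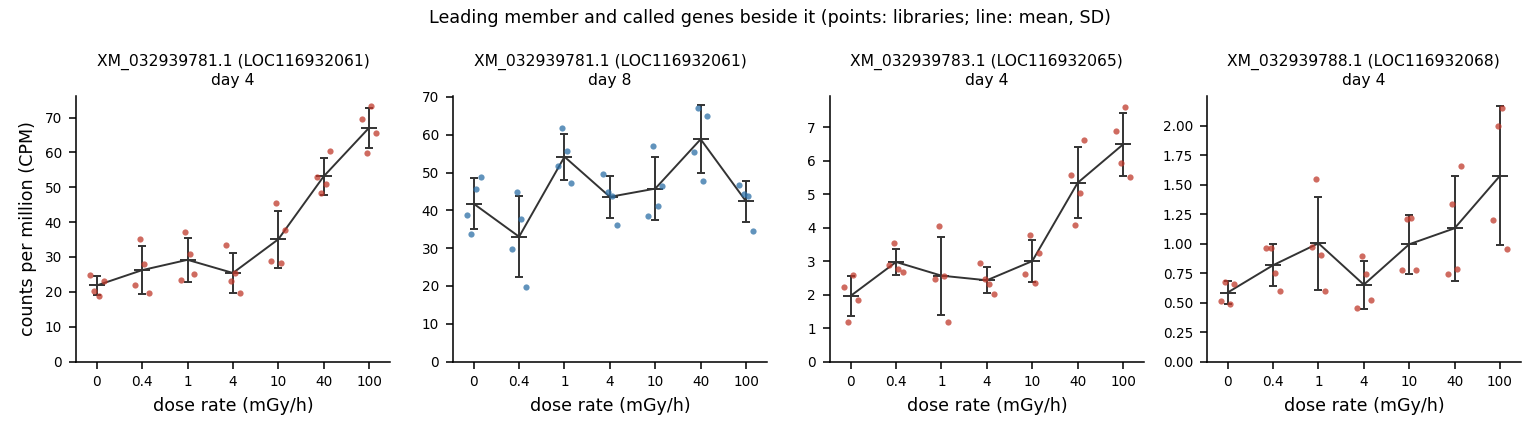
Level in CPM by dose rate of XM_032939781.1 on day 4 and day 8, and of 2 records beside it in the annotation, XM_032939783.1 and XM_032939788.1, on day 4; points are libraries, and the line joins group means with SD (n = 4). On day 4 all 3 records have their highest mean at 100 mGy/h, at 67.1, 6.48 and 1.58 CPM, while on day 8 the leading member has 42.4 CPM at 100 mGy/h and 41.7 CPM in the control.

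A pair of genes beside it were also higher at 100 mGy/h on day 4. The 5 protein-coding genes on each side of LOC116932061 in the annotation were examined after the values were seen, and 3 of their 14 records had enough counts to be tested. XM_032939783.1 (LOC116932065), the next gene, had 6.89, 5.92, 7.60 and 5.51 CPM at 100 mGy/h, against 2.21, 1.19, 2.60 and 1.83 CPM in the controls, with no overlap (edgeR log2 fold change 1.73, SE 0.26, adjusted p = 0.000431). This gene overlaps LOC116932061 in the annotation, and the strand used in counting is not given in the sources used here, so reads of the pair cannot be told apart. XM_032939788.1 (LOC116932068) lies 2 genes away on the other side without overlap. It had 1.20, 2.00, 2.15 and 0.955 CPM at 100 mGy/h, against 0.517, 0.672, 0.491 and 0.661 CPM in the controls, again with no overlap, at levels of about 1 CPM (edgeR log2 fold change 1.44, SE 0.32, adjusted p = 0.0260). The third, XM_032939782.1 (LOC116932064), was too variable to be called (edgeR log2 fold change 1.01, SE 1.38, adjusted p = 0.888). XM_032939783.1 did not qualify as a member because its control level differed between the ages by 2.05 on the log2 scale and its day 8 correlation was 0.506. On day 8 it was also called rising in the trend (edgeR slope 0.12 per rank, adjusted p = 0.0324). At 100 mGy/h on day 8 it was not called (edgeR log2 fold change 0.43, adjusted p = 0.284).

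The member most like the leading one in its scatter between replicate libraries was XM_032936725.1, which matched no symbol. It had 69.8, 68.6, 77.3 and 78.7 CPM at 100 mGy/h on day 4, against 51.5, 51.1, 49.5 and 47.6 CPM in the controls, and every library at 100 mGy/h exceeded every control (edgeR log2 fold change 0.58, adjusted p = 0.00743, SE 0.11). After subtraction of the group means, which removes differences between the dose-rate groups, the log2 levels of XM_032936725.1 and XM_032939781.1 correlated across the 28 libraries of day 4 with r = 0.77 and across those of day 8 with r = 0.87. The means of both were lowest at 0.4 mGy/h and highest at 40 mGy/h on day 8. For XM_032936725.1 these were 48.6 ± 10.6 and 76.8 ± 4.18 CPM, with 59.0 ± 4.33 CPM in the control (SD, n = 4 each). Its day 8 libraries at 40 mGy/h, with 74.4, 82.2, 72.7 and 77.8 CPM, all lay above every control of that day. That difference was not called (edgeR log2 fold change 0.47, adjusted p = 0.311). Nor was the difference of its slopes between the days (edgeR adjusted p = 0.325). XM_032936725.1 and XM_032939781.1 share their libraries and depth, and their correlation carries no test.

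Other called members were called at differing dose rates, and no test compared their profiles. XM_032922044.1 (LOC116916713) was level up to 10 mGy/h and higher at 40 and 100 mGy/h. It had 179.6, 175, 172 and 171 CPM at 100 mGy/h and 161, 160.2, 161 and 172 CPM at 40 mGy/h, against 145, 150.1, 144 and 149 CPM in the controls, and neither exposed group overlapped the controls. For these, edgeR gave log2 fold changes of 0.26 (adjusted p = 1.52e-05, SE 0.03) and 0.14 (adjusted p = 0.0407, SE 0.03). These are rises of 1.20-fold and 1.11-fold, beside a within-group SD of 0.041 on the log2 scale.

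XM_032926544.1 (LOC116920329) and XM_032929510.1 (LOC116922996) were called at the highest dose rate and at no other. XM_032926544.1 had 79.3, 79.5, 76.6 and 83.8 CPM at 100 mGy/h, against 64.9, 66.1, 64.3 and 62.7 CPM in the controls (edgeR log2 fold change 0.32, adjusted p = 0.000106, SE 0.04). Its mean was 65.3 ± 4.14 CPM at 40 mGy/h (SD, n = 4), within the spread of the controls. XM_032929510.1 had 14.3, 15.4, 14.8 and 15.4 CPM at 100 mGy/h, against 11.5, 11.6, 10.7 and 11.3 CPM in the controls (edgeR log2 fold change 0.43, adjusted p = 0.0117, SE 0.09). All its libraries at 40 mGy/h (mean 12.4 ± 0.519 CPM, SD, n = 4) lay between these groups. Neither transcript at 100 mGy/h overlapped its controls. Neither was called in the trend (edgeR adjusted p = 0.0563 and 0.0956), and both are named because they were called at 100 mGy/h. Within the smaller class of library totals the XM_032929510.1 call was lost (adjusted p = 0.230).

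XM_032929703.1 (LOC116923228) was already above its controls at the lowest dose rates and varied little beyond 1 mGy/h. Its means at 0, 0.4, 1, 4, 10, 40 and 100 mGy/h were 18.7 ± 1.63, 24.7 ± 2.58, 28.2 ± 1.52, 27.5 ± 4.998, 30.1 ± 3.75, 27.8 ± 3.61 and 30.5 ± 4.95 CPM (SD, n = 4 each). In each of the exposed groups all libraries lay above every control, but the difference missed the threshold at 0.4, 4 and 40 mGy/h (adjusted p = 0.0916, 0.126 and 0.0530 by edgeR). The 100 mGy/h libraries had 37.0, 27.2, 31.7 and 26.1 CPM, against 16.8, 18.4, 20.8 and 18.9 CPM in the controls. Libraries at 1 mGy/h, with 30.4, 27.9, 27.5 and 27.0 CPM, lay above every control and within the range of those at 100 mGy/h. This was the member called at 1 mGy/h (0.58, adjusted p = 0.0233) and at 10 mGy/h (0.67, adjusted p = 0.0124), and it was called again at 100 mGy/h (0.72, adjusted p = 0.00236, SE 0.12, edgeR log2 fold changes). The call at 100 mGy/h was lost with only the 0 and 100 mGy/h groups in the fit (adjusted p = 0.0748). Its call in the trend (edgeR slope 0.089 per rank, adjusted p = 0.0236) was lost when any 1 of the 4 controls was left out (adjusted p = 0.0595, 0.0592, 0.0540 and 0.0581), or 100 mGy/h library 1 (adjusted p = 0.0755), and within the smaller class (adjusted p = 0.104).

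XM_032938049.1 (LOC116930652) had group means that did not follow the order of the dose rates. At 0, 0.4, 1, 4, 10, 40 and 100 mGy/h they were 36.0 ± 2.05, 50.8 ± 10.0, 38.4 ± 4.30, 47.0 ± 4.32, 42.1 ± 5.57, 48.6 ± 5.66 and 54.1 ± 3.50 CPM (SD, n = 4 each). All libraries at 4, 40 and 100 mGy/h lay above every control, and at 0.4, 1 and 10 mGy/h not all of them did. It was called at 100 mGy/h and at no other dose rate (0.4 mGy/h had edgeR adjusted p = 0.0655). Its libraries had 56.6, 51.5, 50.6 and 57.5 CPM at 100 mGy/h, against 35.9, 34.6, 34.6 and 39.0 CPM in the controls, with no overlap (edgeR log2 fold change 0.60, adjusted p = 0.0107, SE 0.12). It was the member with the highest fold change at 100 mGy/h on day 8. There it had 64.3, 55.9, 51.5 and 52.9 CPM, against 38.7, 48.0, 34.2 and 45.3 CPM in the controls of that day, and the groups did not overlap, but the difference was not called (edgeR log2 fold change 0.50, adjusted p = 0.211, SE 0.23). Within the smaller class of day 4 library totals its day 4 call was lost (adjusted p = 0.0949).

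**Figure D4:**
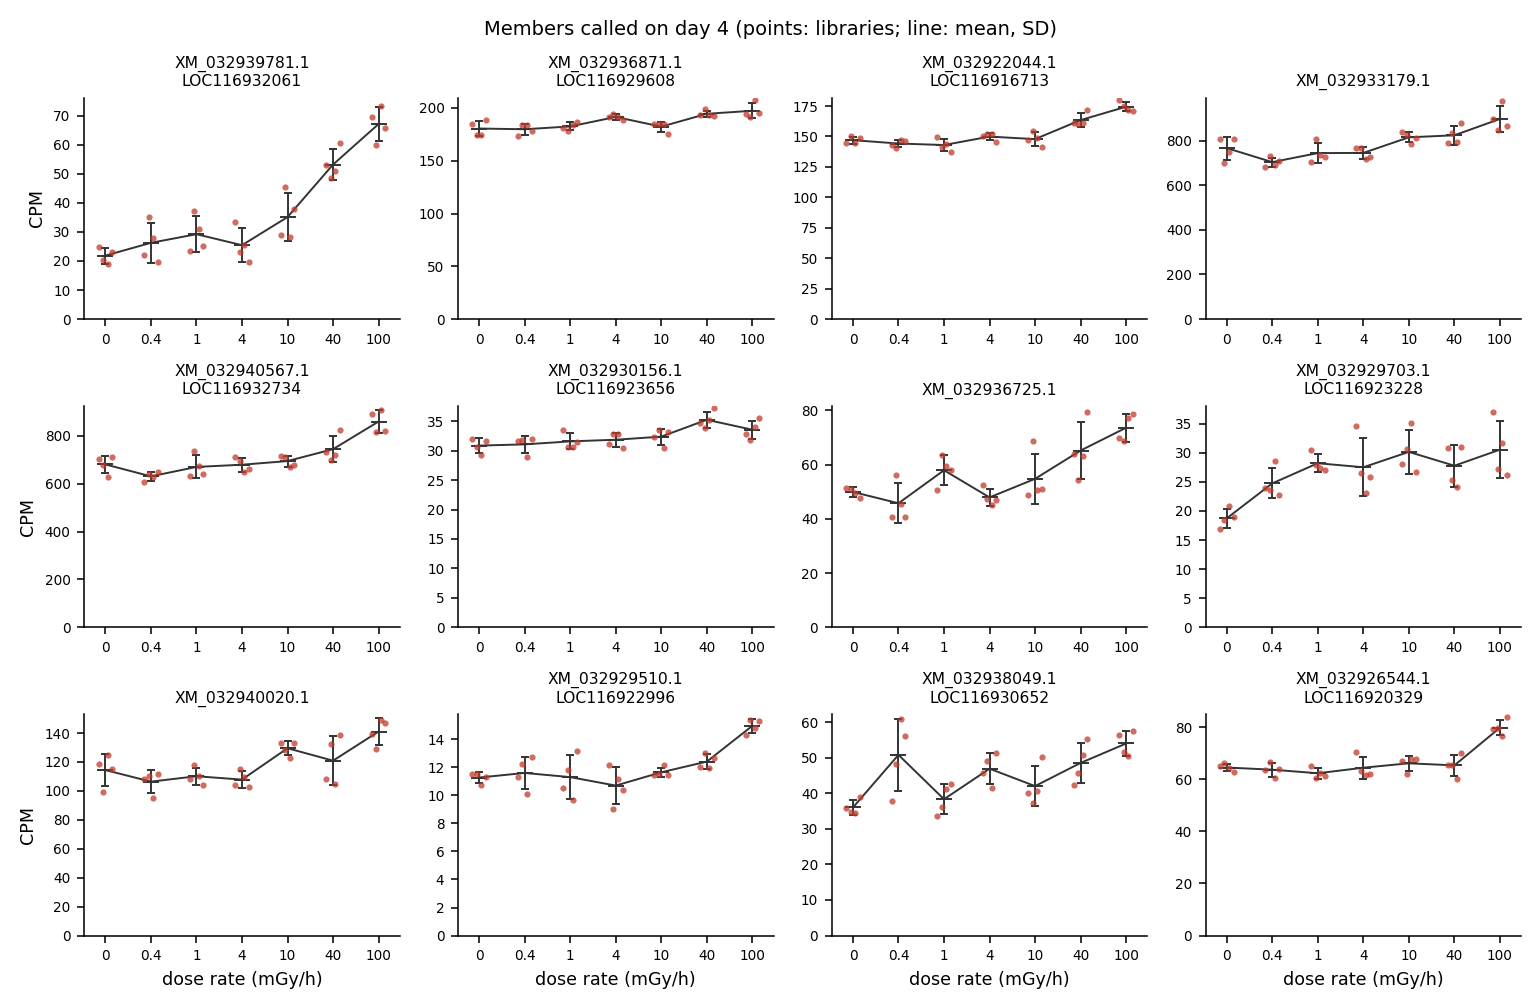
Level in CPM on day 4 by dose rate (mGy/h) of the 12 members called in the trend or at 100 mGy/h; points are libraries, the line joins group means with SD (n = 4), and every vertical axis starts at 0. XM_032939781.1 changes most, XM_032926544.1 and XM_032929510.1 are highest at 100 mGy/h, XM_032929703.1 is already higher at 1 mGy/h, and XM_032936871.1 and XM_032930156.1 move by little.

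A small set of named members varied together from library to library, though the members as a whole did so about as much as all records. XM_032933179.1, XM_032940567.1 (LOC116932734) and XM_032942633.1, the 3 members with the highest mean CPM, gave within-group correlations of 0.78, 0.75 and 0.65 among their 3 pairs on day 4 and of 0.93, 0.92 and 0.90 on day 8. XM_032940020.1, named after these values were seen, correlated with XM_032933179.1 at 0.66 and 0.75. Of the 1770 pairs of members, 3 exceeded 0.7 on day 4 (0.169%, against 0.282% of the pairs of all 4243 records), and the same 3 were among the 120 that exceeded it on day 8. On day 8, 6.78% of member pairs and 6.35% of all pairs did. The share among members was thus below that of all records on day 4 and near it on day 8. The pairs named here are among the highest of all member pairs on day 4. Over all pairs of members, the mean within-group correlation was 0.065 on day 4 (all records 0.049) and 0.170 on day 8 (all records 0.144).

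In this set the 100 mGy/h libraries lay high on day 4 and low on day 8. The day 8 correlations were -0.296 for XM_032940567.1, -0.276 for XM_032933179.1, -0.250 for XM_032942633.1 and -0.274 for XM_032940020.1. These lay near the limit of 0.3 in size. As these members varied together, they are not independent observations. XM_032940567.1 had 891, 818, 910.4 and 822 CPM at 100 mGy/h on day 4, against 703, 679.9, 630.5 and 711 CPM in the controls. On day 8 it had 685, 733, 675 and 636 CPM at 100 mGy/h, against 838, 909, 730.4 and 739 CPM in the controls. The 100 mGy/h libraries lay above every control on day 4, and on day 8 all but 1 of them lay below every control. For day 4 edgeR gave a log2 fold change of 0.35 (adjusted p = 0.000394, SE 0.05), and for day 8 one of -0.17 (adjusted p = 0.503, SE 0.14). XM_032933179.1 had 898, 848, 978 and 866 CPM at 100 mGy/h on day 4, against 807, 702, 750.0 and 809 CPM in the controls, without overlap (0.24, adjusted p = 0.0125, SE 0.05, edgeR log2 fold change). That call was lost without control library 2 (adjusted p = 0.0543), without 100 mGy/h library 3 (adjusted p = 0.0568), within the smaller class (adjusted p = 0.310) and with only the 2 groups in the fit (adjusted p = 0.330). Its day 8 fold change was -0.16 (adjusted p = 0.562).

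XM_032942633.1 and XM_032940020.1 had day 4 fold changes at 100 mGy/h of 0.18 (edgeR adjusted p = 0.109) and 0.32 (edgeR adjusted p = 0.0639), and day 8 fold changes of -0.13 and -0.27. XM_032940020.1 was called in the day 4 trend (edgeR adjusted p = 0.0442), but this call was lost in 20 of the 28 fits that left out 1 library (largest adjusted p = 0.144, without 100 mGy/h library 4) and with the replicate number as a block (adjusted p = 0.0823). None of these day 8 differences was called. The 100 mGy/h libraries of XM_032940020.1 on day 8, with 99.8, 108, 99.2 and 86.5 CPM, nevertheless all lay below the controls, with 123, 115, 139.7 and 123 CPM. The next gene to XM_032940567.1, LOC116932735 (XM_032940568.1), which does not overlap it in the annotation, was called on day 4 too (edgeR log2 fold change 0.30, SE 0.06, adjusted p = 0.0120). The within-group correlation of these neighbours was 0.56 on day 4 and 0.91 on day 8.

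**Figure D5:**
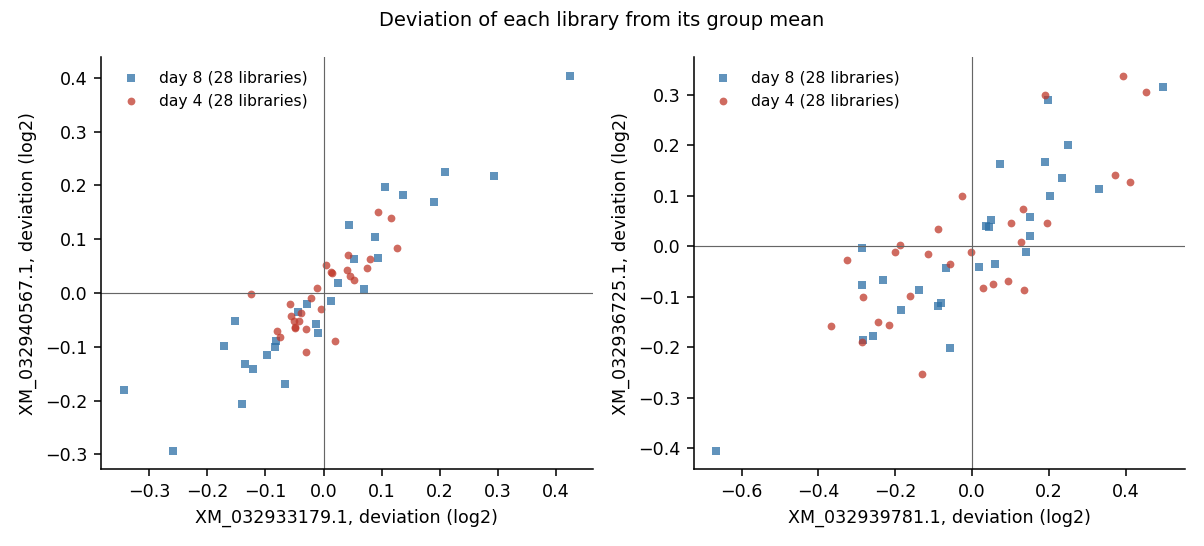
Deviation of each library from its group mean, on the log2(CPM + 0.5) scale, for the 2 pairs of members with the highest within-group correlation on day 4: XM_032940567.1 against XM_032933179.1 (left) and XM_032936725.1 against XM_032939781.1 (right), with 28 libraries of day 8 as blue squares and 28 of day 4 as red circles. Both pairs follow a rising line, with r of 0.93 and 0.87 on day 8 and 0.78 and 0.77 on day 4.

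The remaining members with a high correlation changed by little. XM_032936871.1 (LOC116929608) had 195, 192, 208 and 195 CPM at 100 mGy/h on day 4, against 185, 175, 174 and 188 CPM in the controls, which did not overlap (edgeR log2 fold change 0.15, adjusted p = 0.00881, SE 0.03). With only these 2 groups in the fit, or within the smaller class of library totals, it was not called (adjusted p = 0.375 and 0.274). XM_032930156.1 (LOC116923656) was called in the trend (edgeR slope 0.028 per rank, adjusted p = 0.0112; 0.110 within the smaller class) but not at 100 mGy/h. Its means at 0, 40 and 100 mGy/h were 30.9 ± 1.21, 35.3 ± 1.40 and 33.6 ± 1.56 CPM (SD, n = 4 each). XM_032936585.1 (LOC116929385) had means of 233 ± 3.99, 253 ± 2.11 and 249 ± 10.4 CPM at 0, 40 and 100 mGy/h (SD, n = 4 each), and was not called in the trend (edgeR adjusted p = 0.0822).

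At the small end, XM_032922051.1 (LOC116916720), XM_032922639.1 and XM_032932153.1 (LOC116925441) had log2 fold changes of 0.04, 0.04 and 0.05 at 100 mGy/h on day 4 (edgeR adjusted p = 0.867, 0.816 and 0.729). XM_032922639.1, for example, had 107, 119, 123 and 124 CPM at 100 mGy/h, against 121, 116, 116 and 112 CPM in the controls, and the groups overlapped. A pair of members entered with large but erratic values. XM_032923424.1 (LOC116917831) had 40.7, 49.7, 87.4 and 41.7 CPM at 100 mGy/h, against 22.1, 17.4, 23.5 and 71.3 CPM in the controls, with a log2 fold change of 0.72 and an SE nearly as large, 0.63 (edgeR adjusted p = 0.811). Its groups overlapped throughout, with libraries from 8.31 CPM at 1 mGy/h to 119.8 CPM at 4 mGy/h, and its within-group SD of 0.929 on the log2 scale was the largest of the members. XM_032925337.1 had 124, 66.4, 65.3 and 62.7 CPM at 100 mGy/h, against 55.4, 59.6, 54.0 and 60.5 CPM in the controls, so that a single library carried most of its difference (edgeR log2 fold change 0.49, adjusted p = 0.260, SE 0.17). All of these 100 mGy/h libraries nevertheless lay above every control. The median within-group SD over the members was 0.069 on day 4, against 0.090 over the 4243 records, and 0.156 on day 8, against 0.172.

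Some members were lower on day 8 by almost the full permitted amount in unexposed animals. XM_032930156.1, XM_032929270.1 (LOC116922821) and XM_032938082.1 (LOC116930687) differed between the day 8 and the day 4 controls by -0.97, -0.97 and -0.92 on the log2 scale. XM_032938082.1 had 40.2, 38.9, 41.1 and 36.3 CPM in the day 8 controls and 72.0, 78.7, 74.3 and 73.5 CPM in the day 4 controls. XM_032929270.1 shares its symbol with another record of the tables, and reads may have been divided between the pair, which leaves its level uncertain. XM_032940567.1, with 0.23, XM_032936725.1, with 0.24, and XM_032939781.1 had the largest positive age differences. At 100 mGy/h the median difference between the ages was -0.64 over the members and -0.41 over the 4243 records, and 57 of the 60 were lower on day 8. A more negative value here than in the controls follows from the way the members were chosen.

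On day 8 no member was called in the trend, where 6.5% of the 9367 transcripts tested were called in either direction, and none had an unadjusted edgeR p under 0.05, where 21.7% of all did. The limit on the day 8 correlation sets this count, and nothing is read from it. At 100 mGy/h on day 8, 0 members were called, where 2.73% of all were, and 7 had an unadjusted edgeR p under 0.05, where 20.9% of all did. DESeq2 also called 0 members in the day 8 trend, where it called 793 of all 9367 transcripts in either direction. The day 8 fold changes of the members at 100 mGy/h ran from -0.39 to 0.50 with a median of 0.01, and 33 were positive. The lowest belonged to XM_032936859.1 (LOC116929593), named after its value was seen, with 12.6, 11.7, 15.5 and 14.6 CPM at 100 mGy/h, against 17.8, 17.5, 20.3 and 19.0 CPM in the controls of that day. These did not overlap, and the difference was not called (edgeR log2 fold change -0.39, adjusted p = 0.130, SE 0.15).

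The difference between the slopes of the 2 days was fitted in 1 edgeR model of all 56 libraries. The slope was called lower on day 8 than on day 4 for 7 members, where 2.99% of the 9561 transcripts in that fit were, again a contrast that the rule used. The largest difference was that of XM_032939781.1, at -0.20 per rank (adjusted p = 0.00557). XM_032940567.1, XM_032922044.1 and XM_032936871.1 were also called, with -0.08, -0.04 and -0.03 per rank. Age and length of exposure changed together between the days and cannot be told apart.

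The members were scattered over the genome. The 44 members with a symbol lay on all 10 linkage groups of the annotation, and no 2 of them were neighbouring protein-coding genes. The closest pair, XM_032936859.1 and XM_032936871.1, had 3 genes between them. Genes next to members were not used by the rule: 49 tested records lay beside 36 members, and their median log2 fold change at 100 mGy/h on day 4 was 0.01, with 25 positive. Of these, 2 were called higher (4.08%, against 0.555% of all tested transcripts) and 0 lower. An unadjusted edgeR p under 0.05 was found for 8, some of them higher and some lower, where 9.26% of all had one in either direction. The 2 called higher were XM_032939783.1, which overlaps a member, and XM_032940568.1, both described above.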

How the data were processed

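RNA-seq read counts per RefSeq model transcript were used as deposited by the authors, in a table of 28 libraries for each day. They are whole numbers and not normalized. Per the submitters' processing notes, HISAT was used; its version, the counting program, the strand setting and the genome build are not given in the sources used here. Records shared between overlapping or near-identical genes may have exchanged reads.

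Groups came from the labels, and no columns were left without a sample. The members and the lists were chosen with earlier results of these data known. CPM levels, given as mean ± SD, were computed on column totals of 13285376 to 14986499 counts. No pair of libraries agreed within counting noise (chi-square divided by its degrees of freedom at least 6.03 on day 4 and 20.7 on day 8).

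Tests used edgeR 4.0.16 in R 4.3.3 on all transcripts of a day that passed filterByExpr (9369 on day 4, 9367 on day 8, 9561 for both days together). The fit was glmQLFit and glmQLFTest with TMM scaling, with a coefficient per dose rate or a slope on the dose-rate rank (0 to 6). Tests were 2-sided, with Benjamini-Hochberg adjustment over all transcripts of a comparison and calls at an adjusted p under 0.05. Standard errors were derived from the fold change and the F statistic. The fitting code was also run on counts simulated from these data with known changes added, which is a check of the code only. The alternatives were DESeq2 1.42.0 and its size factors, no filter on low counts, a replicate block, the dose rate in mGy/h, classes of library totals, leaving out libraries, and changes to the rule that chose the members.

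Transcripts were named by rule: among the members, the 8 with the highest day 4 correlation, the 6 largest and 3 smallest fold changes at 100 mGy/h, the 3 highest mean CPM, the 3 largest and 3 smallest age differences, and the 3 on each side of the list's limit. Other transcripts were named after their values were seen, among them the remaining called members. Sequence features and functional keywords were not examined, since the reference table holds neither sequences nor descriptions. The 14015 records (59.5%) matched to the table were matched with the version number ignored. Only 101 matched with it.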

Additional observations from a re-analysis of the deposited data

Results flagged for a closer look

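In the groups of 4 libraries of the members named by rule, the library farthest from the others was compared with Dixon's critical value. Chance exceeds it in about 1 of 20 groups, or 4 of the 80 examined on day 4 (all 7 groups for the 8 members with the highest correlation, the control and 100 mGy/h groups for the others), and 9 exceeded it. In exposed groups, a single library of XM_032936871.1 was low at 10 mGy/h, with 175.4 CPM where the others had 184.5 to 184.8. A library of XM_032922044.1 was high at 40 mGy/h, with 172 CPM (others 160.2 to 161). XM_032930156.1 had a low library at 0.4 mGy/h, with 29.0 CPM (others 31.6 to 32.0), and XM_032936725.1 a high one at 10 mGy/h, with 68.6 CPM (others 48.8 to 51.1). At 100 mGy/h, XM_032925337.1 had 124 CPM in a single library (others 62.7 to 66.4), while XM_032923653.1 and XM_032925330.1 each had a low library, with 26.6 CPM (others 31.7 to 32.6) and 9.70 CPM (others 11.1 to 11.3). In controls, XM_032923424.1 had 71.3 CPM in a single library (others 17.4 to 23.5) and XM_032922051.1 had 56.4 CPM (others 51.6 to 52.4).

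The slope on the dose-rate rank differed between the days, day 8 minus day 4, for 7 members (edgeR, 1 model of all 56 libraries). Per rank of the dose rate, with the adjusted p in parentheses, the difference was -0.199 for XM_032939781.1 (0.00557), -0.0831 for XM_032940020.1 (0.0279), -0.0788 for XM_032940567.1 (0.0263), -0.0440 for XM_032922044.1 (0.0261), -0.0400 for XM_032933091.1 (0.0317), -0.0320 for XM_032936871.1 (0.0176) and -0.0279 for XM_032926169.1 (0.0199). Members were chosen for a high day 4 and a weak day 8 correlation, so these differences are favoured by the choice and are not independent evidence.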

How the results depend on the processing

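The number of members called in the day 4 trend, 9 as reported, was 20 with DESeq2, 18 with a slope on the dose rate in mGy/h, 8 with a replicate block, 6 within the smaller class of library totals, and 7 to 12 when 1 library was left out. The same fits called 39 of all 9369 transcripts rising as reported, 66 with DESeq2 and 102 with the slope in mGy/h. They called 37 with the replicate block and 24 of 9442 within the smaller class. At 100 mGy/h on day 4, where 10 members were called, the number of members was 16 with DESeq2, 6 within the smaller class, 7 with only the 0 and 100 mGy/h groups in the fit, 10 with the replicate block, and 9 to 12 when 1 library was left out. Of all 9369 transcripts, 52 were called higher as reported, 83 with DESeq2 and 49 with the replicate block. Within the smaller class 23 of 9442 were, and with only the 0 and 100 mGy/h groups 23 of 9008. In either direction DESeq2 called 131 transcripts at 100 mGy/h, against 71. The trend on day 8 had 0 members in every alternative run. The median log2 fold change of the members at 100 mGy/h was 0.12 to 0.13 on day 4 and -0.00 to 0.03 on day 8 when 1 library was left out; on day 8 it was -0.01 without a filter on low counts, against 0.01 as reported. The membership also depended on the settings: the rule chose 38 of the 60 again with CPM on TMM-scaled sizes, 36 with a day 8 limit of 0.5, 25 with the 24 exposed libraries alone, 25 within the smaller class, and 39 to 59 when 1 day 4 library was left out (39 without 100 mGy/h library 1). Leaving out libraries 1 and 2 at 1 mGy/h together, chosen after seeing the data, gave 8 members in the trend, 10 at 100 mGy/h and 51 shared with the list. Of all 9476 transcripts in those fits, 35 were called rising and 51 higher at 100 mGy/h. The cause of these changes was not tested. The day 8 median was the value whose sign changed, and no fold change or day 4 slope of a single named member changed sign. Of the comparisons of single named members with an alternative, 633 kept a call and 42 lost it; 839 stayed uncalled and 13 gained a call.

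The same replicate numbers did not mark pairs on average. Deviations of same-numbered libraries correlated at a mean of 0.017 on day 4 (other pairs -0.0069) and -0.0062 on day 8 (other pairs 0.0021). For control and 100 mGy/h libraries alone, the values were -0.16, 0.04, -0.30 and -0.28 on day 4. On day 8 they were 0.04, 0.38, 0.31 and 0.16, all positive. On day 8, scaling by column totals moved the median of all transcripts by -0.12 at 1 mGy/h and by -0.02 to -0.09 at the other dose rates, and edgeR's TMM scaling removes this shift.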
